A study of Mus musculus with 2 samples.

Results

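The genes of MHC class II presentation were described in thymic epithelial cells (TECs) of C57BL/6 mice, from single-cell RNA sequencing. The members were chosen by their role and not by a measured value, though with earlier results of these data known. They were 10 of the 32285 listed genes, namely Ciita, H2-Aa, H2-Ab1, H2-Eb1, Cd74, H2-DMa, H2-DMb1, H2-DMb2, H2-Oa and H2-Ob. All 10 were counted in both libraries. EpCAM+ cells negative for CD45 and TER119 had been sorted from pooled thymi of 3 female mice per library. The irradiated mice were exposed to 5.5 Gy when 7 weeks old and sampled after 15 days, with a label of 9 weeks, and the control mice were not irradiated. Each condition is a single library, which leaves differences between libraries without replicates, and no p-value is given.

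The deposit titles the libraries the other way round from the names used here. The library called control here is titled as irradiated in the deposit, but after the study's cell filter it holds 3233 cells, the number that the results of the study tie to control TECs, and the other holds 5070 cells, the number tied to irradiated TECs. The libraries were therefore named by these numbers. Every direction between the libraries given here reverses under the deposited titles. The labels also give version 2 of the droplet chemistry where the study's methods give version 3, and an age of 4 weeks in the protocol.

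MHC class II molecules are pairs of an α and a β chain that show peptides to CD4+ T cells. Most cells lack them, but TECs carry them all the time, and in the thymus they serve to select developing CD4+ T cells in the cortex and to test these cells for self-reactivity in the medulla. The chains are built on the invariant chain, Cd74, which blocks their groove and takes them to endosomes. There proteases cut Cd74 down, H2-DM swaps the remaining fragment for a peptide, and H2-DO holds H2-DM back. CIITA, the product of Ciita, switches on the whole set: it binds no DNA itself but sits on the factors RFX, CREB and NF-Y, which are bound to the X and Y boxes of each class II promoter. C57BL/6 mice make no E α chain, so that H2-Eb1, the E β chain, has no partner in them. H2-Ea is not analysed here.

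Of the 10 genes, 8 lie together on chromosome 17 (GRCm38), between positions 34092340 and 34316674, a stretch of 224 kb. Ciita lies apart, on chromosome 16 at 10480059 to 10528418, and so does Cd74. None of the 10 overlaps an exon of another listed gene on its own strand in GENCODE. The RefSeq promoter table for GRCm38.p6, with 250 bases before and 50 after each gene's start, held 7 of the 10 members. The 6 windows that hold letters of both boxes are shown because CIITA works through such boxes. Capitals mark AAC, letters that lie within the X box, and TGATTGG, the letters of the Y box, and each window is written on the strand of its gene.
H2-Aa: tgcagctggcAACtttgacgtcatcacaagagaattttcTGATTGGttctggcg
H2-Eb1: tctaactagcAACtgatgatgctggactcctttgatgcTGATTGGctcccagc
H2-DMb1: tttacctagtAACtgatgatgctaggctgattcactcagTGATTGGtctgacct
H2-DMb2: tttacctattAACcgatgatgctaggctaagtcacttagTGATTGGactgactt
H2-Oa: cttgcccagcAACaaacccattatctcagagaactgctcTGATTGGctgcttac
H2-Ob: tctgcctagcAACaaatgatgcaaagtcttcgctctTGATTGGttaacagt

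These windows stand at chr17:34287859-34287912 on the minus strand for H2-Aa and, all on the plus strand, at chr17:34305768-34305820 for H2-Eb1, chr17:34153089-34153142 for H2-DMb1, chr17:34145118-34145171 for H2-DMb2, chr17:34092295-34092348 for H2-Oa and chr17:34238810-34238860 for H2-Ob. The AAC began 26 to 29 bases before the TGATTGG, a spacing taken from these same 6 promoters and so no evidence for them. Searched on both strands, TGATTGG occurred in 7.82% of the 32851 promoters, and the pair at this spacing in 0.460%. Neither promoter listed for H2-DMa holds the 7 letters, which says nothing of the factor. H2-Ab1, Ciita and Cd74 have no entry in the table.

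Cells were sorted into 14 gates by their marker UMIs, UMIs being the tags that stand for single captured RNA molecules, and the members' values had no part in the gates. Cortical cells held Psmb11 and Prss16, and were parted by thymocyte RNA. The medullary gates were Aire-high cells (10 or more Aire UMIs, parted by S100a8 and S100a9), Aire-intermediate cells (from 2), Ccl21a-high cells (20 or more UMIs, parted by Ccl11) and dividing cells in replication or G2/M. Other gates held markers of tuft cells, microfold cells, enterocytes or keratinocytes, cell types of other organs that medullary TECs mimic, and the rest had a Pdpn UMI. A few cells, 6.71% and 6.00%, met no gate. From here on, of values given in pairs the first belongs to the control library and the second to the irradiated one. The enterocyte gate still held 6.66 and 7.53 Aire UMIs per 10000 UMIs, and the keratinocyte gate held 10.6 and 9.51 UMIs of Lypd8, an enterocyte marker. These cells are therefore called by their gate and not by a cell type. Kept cells had a median of 13412 and 13003.5 UMIs.

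Class II transcripts were abundant in nearly all TECs. They were highest in enterocyte-gated cells, followed by Aire-high cells, and lowest in tuft-gated cells. Levels are UMIs per 10000 summed UMIs of a gate, with exact Poisson 95% intervals that cover counting error only. Over all kept cells the 10 genes together took 354 and 352 of 10000 UMIs. The sum was 591 in control enterocyte-gated cells and 595 in irradiated ones, 541 and 532 in Aire-high cells, and 503 and 493 in Aire-intermediate cells. It was 427 and 458 in microfold-gated cells and 401 and 402 in keratinocyte-gated cells. Every one of these gates thus stood above the average of its library.

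Dividing cells and cortical cells came next. Replicating cells held 332 and 316, and G2/M cells 290 and 282. Cortical cells without thymocyte RNA held 284 and 270. Cortical cells with thymocyte RNA, of which the control library has only 30, held 198 and 210 against a total that includes the thymocyte RNA. Ccl21a-high cells, the most numerous gate with 32.0% and 33.1% of cells, held 233 and 256. Pdpn-positive cells held 215 and 232, and tuft-gated cells 185 and 147. With the gate of 30 cells left aside, the order of the gates was the same in both libraries, and the counting intervals of neighbours in it did not overlap. A change in the total RNA of a cell cannot be told apart from a change in these genes on this scale.

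**Figure D1:**
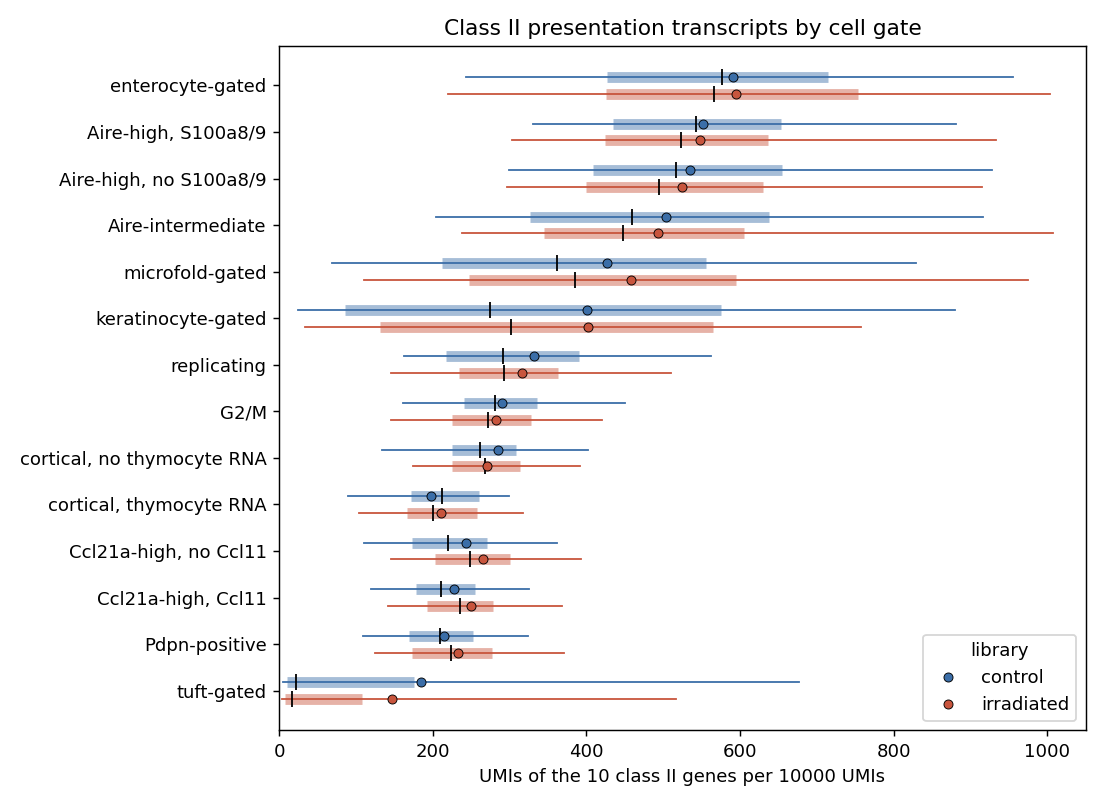
UMIs of the 10 class II genes per 10000 UMIs (x axis) in 14 cell gates (y axis) of the control (blue) and irradiated (red) library. Circles are the level of the whole gate and thick bars the middle 50% of its cells. Black ticks are the median cell and thin lines the 5th to 95th percentile of cells. The enterocyte, Aire-high and Aire-intermediate gates sit near 500 to 600, and the median tuft-gated cell lies near 20.

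The genes did not move as 1 block. H2-Aa, H2-Ab1, H2-Eb1 and Cd74 made up most of the sum, and their levels spanned 3.13-fold (Cd74) to 3.79-fold (H2-Eb1) over the 14 control gates. H2-Oa spanned 10.9-fold. H2-DMb1 spanned 2.80-fold, the narrowest range of the 10. UMIs were counted at the 3′ end and are not divided by gene length, so levels are compared between gates, gene by gene, and ratios between genes are read only as they differ from gate to gate.

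Ciita, the master switch, was a rare transcript everywhere and was highest in Aire-high cells without S100a8 or S100a9. These held 2.89 (2.75 to 3.03) and 2.45 (2.34 to 2.55) Ciita UMIs per 10000. Aire-high cells with S100a8 or S100a9 held 1.96 and 1.88, Aire-intermediate cells 1.95 and 1.85, and G2/M cells 1.95 and 1.82. The counting intervals of these gates and of replicating cells overlapped in each library. Dividing cells thus carried Ciita within the counting error of Aire-intermediate cells, with a class II sum of 290 to 332 beside 503 in the control library.

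Enterocyte-gated cells showed the reverse, with 1.63 and 1.58 Ciita UMIs per 10000 under the highest class II sum. Ciita was 1.34 and 1.24 in cortical cells, 0.858 and 0.938 in Ccl21a-high cells, 0.892 and 0.884 in microfold-gated cells and 0.493 and 0.50 in tuft-gated cells. After thinning to 4000 UMIs, 63.0% of control and 53.9% of irradiated Aire-high cells had a Ciita UMI, against 6.76% and 10.8% of tuft-gated cells. Without thinning the shares were 91.7% and 90.4%, and 25.6% and 24.2%. Median depths were 20206 and 16786.5 UMIs in Aire-high cells, and 14204 and 11629.5 in tuft-gated cells.

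Within some gates the cells with a Ciita UMI were also those rich in class II transcripts, and within others they were not. In control tuft-gated cells thinned to 4000 UMIs, the 14 cells with a Ciita UMI held 564 class II UMIs per 10000, and the 193 cells without one held 113. In the irradiated library the 20 tuft-gated cells with Ciita held 247 and the 166 without held 82.5. Class II levels in the tuft gate also differed with tuft marker UMIs, as given below. The part of this in the split by Ciita was not tested. Keratinocyte-gated cells held 553 with and 304 without Ciita in the control library, and 479 and 333 in the irradiated library. Microfold-gated cells held 533 with and 362.5 without Ciita in the control library, and 602 and 387 in the irradiated library. In Aire-high cells the values were 557 and 542 in the control library and 529 and 548 in the irradiated library, so that cells with and without a Ciita UMI were close. In Ccl21a-high cells they were 231 and 219, and 259 and 242.

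The classical chains were all higher in Aire-high cells, but not to the same extent. H2-Aa, the A α chain, stood at 98.6 and 101 UMIs per 10000 in Aire-high cells and at 38.2 and 42.1 in Ccl21a-high cells, with the control library given first. H2-Ab1, its β chain, stood at 90.9 and 89.0 against 50.5 and 54.7. H2-Aa was thus higher by 1.37 and 1.26 in log2 in Aire-high cells, and H2-Ab1 by 0.85 and 0.70. Counted as a ratio of UMIs, H2-Aa per H2-Ab1 was 1.08 and 1.13 in Aire-high cells and 0.756 and 0.769 in Ccl21a-high cells.

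The same 2 levels of that ratio ran through the other gates. It lay between 1.01 and 1.18 in the enterocyte, microfold, keratinocyte, tuft, dividing and Aire-intermediate gates of both libraries. It lay between 0.742 and 0.843 in the cortical, Ccl21a-high and Pdpn-positive gates. The control cortical cells held 48.8 H2-Aa and 60.4 H2-Ab1 UMIs per 10000. H2-Eb1, the β chain without a partner in this strain, stood at 72.4 and 78.7 in Aire-high cells and at 38.5 and 44.7 in Ccl21a-high cells. Its ratio to H2-Aa was 0.735 and 0.779 in Aire-high cells and 1.01 and 1.06 in Ccl21a-high cells.

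Cd74, the invariant chain, was the most counted transcript of the set, with 41.1% to 52.4% of the class II UMIs over the control gates. It stood at 258 and 245 UMIs per 10000 in Aire-high cells and at 98.8 and 106 in Ccl21a-high cells. Its share of the sum was highest in G2/M cells, at 52.4% and 49.4%, and second in replicating cells, at 50.3% and 48.1%. Cd74 per H2-Aa was 3.28 and 2.92 in G2/M cells and 2.25 and 2.13 in enterocyte-gated cells.

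**Figure D2:**
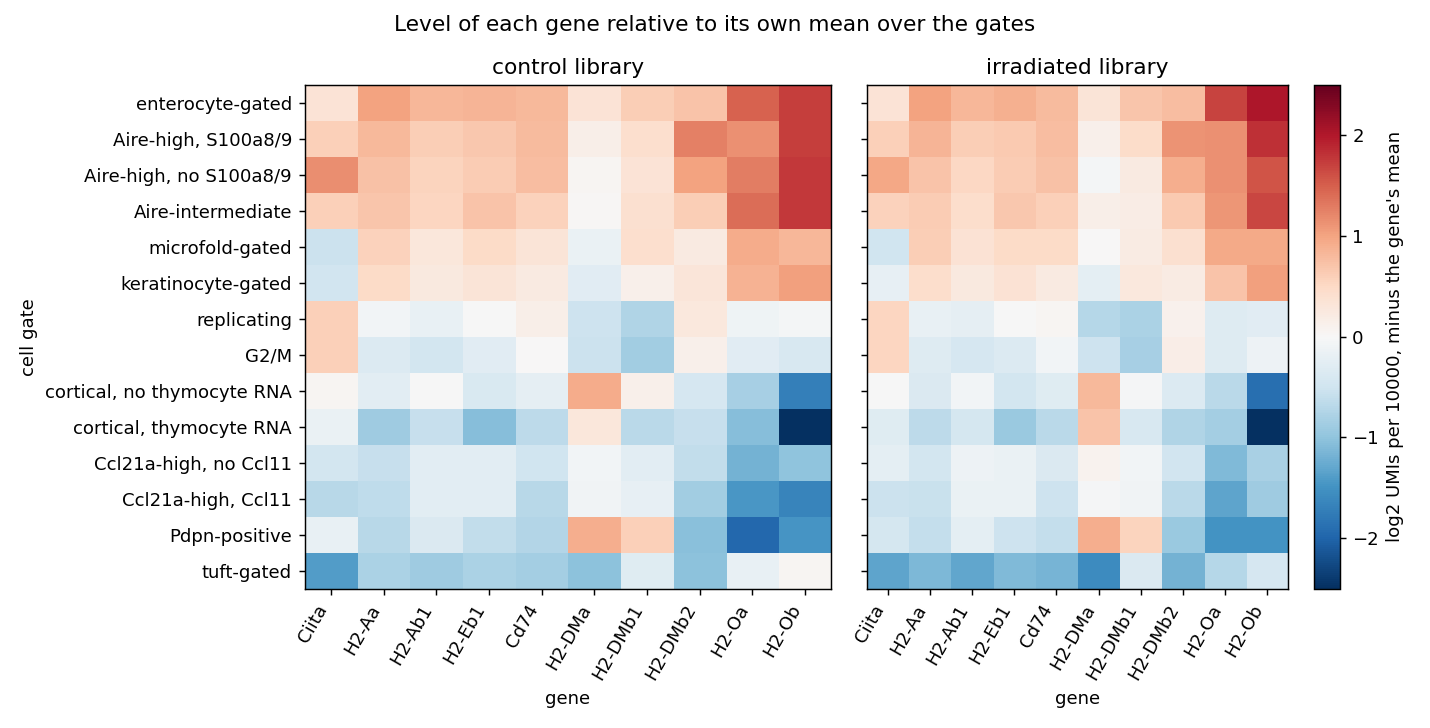
Level of each class II gene (columns) in each cell gate (rows) of the control and irradiated library, as log2 UMIs per 10000 minus the gene's own mean over the 14 gates. Red is above and blue below that mean; H2-Oa and H2-Ob have the deepest colours, and H2-DMa is red in cortical and Pdpn-positive cells where most other genes are blue.

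H2-DMa, the α chain of the peptide exchanger, followed another order. It was highest in cortical cells without thymocyte RNA, at 4.08 (3.84 to 4.33) and 3.52 (3.36 to 3.69) UMIs per 10000, and in Pdpn-positive cells, at 4.02 and 3.74. In Aire-high cells it was 2.27 and 2.01, and in Ccl21a-high cells 2.02 and 2.03. Aire-high cells thus held less H2-DMa than cortical cells, with a class II sum of 541 and 532 beside 284 and 270. The gene was lowest in tuft-gated cells, at 1.05 and 0.668.

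The β chain of H2-DM comes from neighbouring genes, H2-DMb1 and H2-DMb2, whose use differed between gates. H2-DMb2 stood at 6.01 and 5.76 UMIs per 10000 in Aire-high cells and at 1.65 and 1.94 in Ccl21a-high cells. H2-DMb1 stood at 2.77 and 2.67 against 1.83 and 2.05. H2-DMb2 per H2-DMb1 was 2.17 and 2.16 in Aire-high cells, 2.61 and 2.71 in G2/M cells and 2.62 and 2.51 in replicating cells. It was 0.903 and 0.948 in Ccl21a-high cells, 0.790 and 0.766 in tuft-gated cells and 0.417 and 0.481 in Pdpn-positive cells. The genes are close copies: of the 50-base stretches of the H2-DMb1 transcript, 27.2% also occur in H2-DMb2, and within its last 500 bases 20.4% do. None of the stretches in the last 500 bases of H2-DMb2 occur in H2-DMb1. Reads from the shared part could have been split or dropped by the counting, so the absolute ratio is uncertain.

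The chains of H2-DO, which restrains H2-DM, had the steepest differences. H2-Oa stood at 5.54 (5.39 to 5.70) and 4.92 UMIs per 10000 in Aire-high cells and at 0.935 (0.881 to 0.993) and 0.950 in Ccl21a-high cells. H2-Ob stood at 1.23 and 0.960 against 0.142 and 0.166. Control enterocyte-gated cells held 6.60 H2-Oa UMIs per 10000 and irradiated ones 7.20. Pdpn-positive cells held 0.606 and 0.790. Cortical cells held 1.33 and 1.40.

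H2-Oa per H2-DMa, the UMIs of a chain of the restrainer for each UMI of a chain of the exchanger, therefore split the gates. The other chains of H2-DO and H2-DM have no part in this ratio. It was 2.44 in Aire-high cells of both libraries and 2.87 and 2.14 in Aire-intermediate cells. It was 2.43 and 2.89 in enterocyte-gated cells, and 1.97 and 2.04 in tuft-gated cells. Dividing cells were between, at 1.33 and 1.28 in G2/M. Ccl21a-high cells were at 0.463 and 0.469, cortical cells at 0.327 and 0.396, and Pdpn-positive cells at 0.151 and 0.211.

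**Figure D3:**
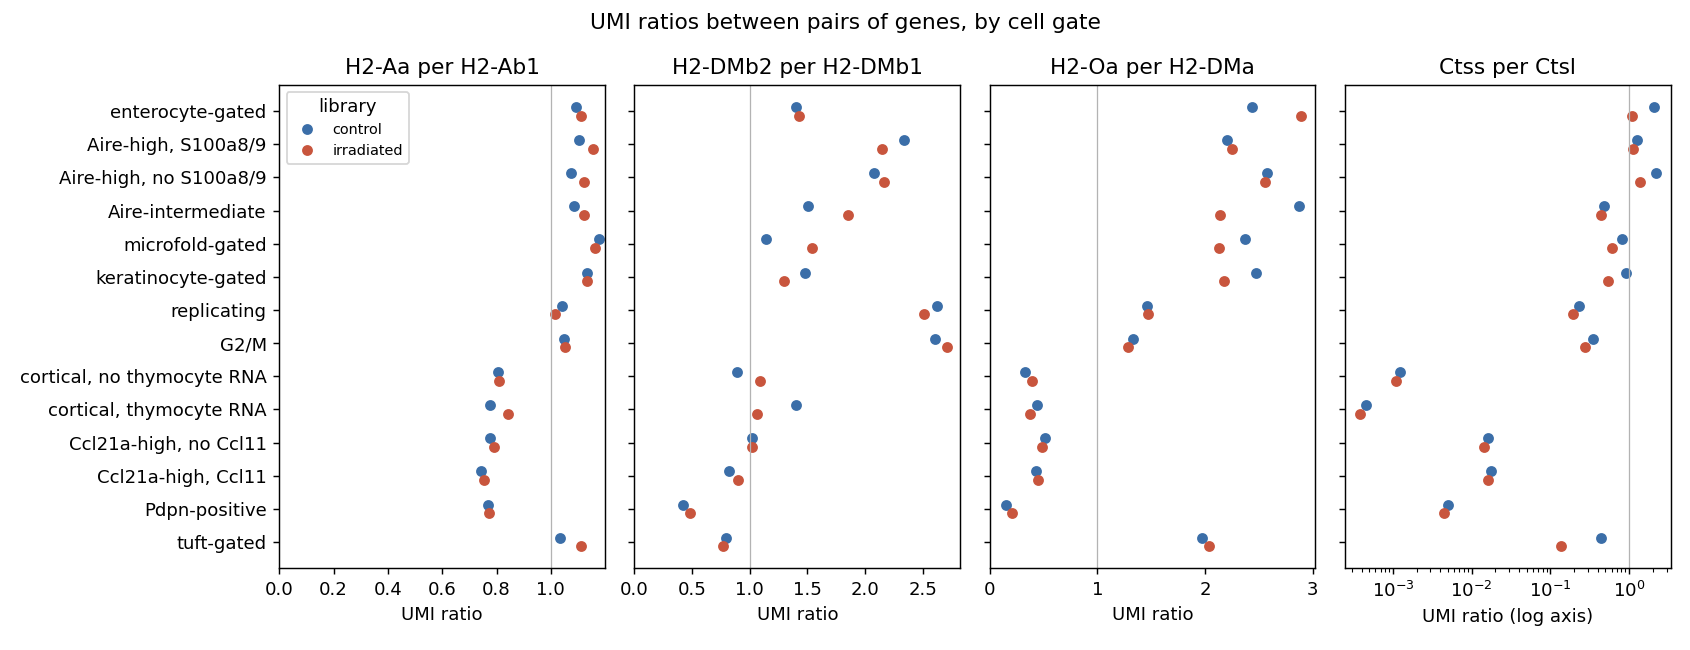
UMI ratios between 4 pairs of genes (x axes; a log axis for Ctss per Ctsl) in 14 cell gates (y axis) of the control (blue) and irradiated (red) library. H2-Aa per H2-Ab1 and H2-Oa per H2-DMa fall on the upper side of 1 in the Aire, mimetic, dividing and tuft gates and on the lower side in the cortical, Ccl21a-high and Pdpn-positive gates.

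Between Aire-high and Ccl21a-high cells, 6 of the 10 members were more than 2-fold higher in Aire-high cells in each library, where 18.5% of 11737 and 19.9% of 12569 tested genes were. These were Ciita, H2-Aa, Cd74, H2-DMb2, H2-Oa and H2-Ob. H2-Ob differed most, by 3.11 (2.80 to 3.42) and 2.53 (2.29 to 2.78) in log2. The sum differed by 1.21 and 1.06. Against cortical cells without thymocyte RNA, 6 of 10 members were more than 2-fold higher in Aire-high cells in each library, beside 21.1% and 21.2% of tested genes. These were H2-Aa, H2-Eb1, Cd74, H2-DMb2, H2-Oa and H2-Ob, while Ciita was at 0.94 and 0.86 in log2. In the control library the counting ranges of H2-Aa (1.02, 0.98 to 1.05), H2-Eb1 (1.04, 0.998 to 1.08) and Cd74 (1.01, 0.98 to 1.03) held 1. In the irradiated library the ranges of these genes lay above 1. H2-Ob is among the 6 with only 28 and 41 UMIs in the cortical cells, and reached the minimum of UMIs through the Aire-high cells, where it is high. Without it, 5 of the other 9 members were more than 2-fold higher. H2-DMa went the other way, by -0.85 and -0.81.

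Cell by cell, the class II sum mostly rose with Aire UMIs when gates were pooled. Gate by gate, the highest sum was in the enterocyte gate, at 591 and 595, and not in the Aire-high gates. The cells of the cortical and tuft gates were left out here, and the others were thinned to 4000 UMIs. Control cells without an Aire UMI then held 256 class II UMIs per 10000, those with 1 held 423, those with 2 to 3 held 491 and those with 4 to 6 held 532. With 7 to 10 Aire UMIs they held 532, and with 11 or more 610 (600 to 621, 55 cells). In the irradiated library the values were 268, 411, 482, 513, 527 and 545. The largest step was that from no Aire UMI to 1.

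H2-Oa was 1.54, 4.78 and 5.98 UMIs per 10000 in the control cells with 0, 1 and 2 to 3 Aire UMIs. H2-DMa stayed between 1.97 and 2.61 over all 6 classes of these cells. The gates left out include its highest and lowest control levels, 4.08 in cortical cells without thymocyte RNA and 1.05 in tuft-gated cells. The split by Ccl21a used the same cells, thinned to 4000 UMIs and without the cortical and tuft gates. Control cells held 414 class II UMIs per 10000 with no Ccl21a UMI, 446 with 1 to 4, 304 with 5 to 19, 210 with 20 to 39 and 232 with 40 or more. The irradiated cells held 435, 448, 293, 242 and 256. Ccl21a has near-identical copies whose reads may be mixed with its own.

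**Figure D4:**
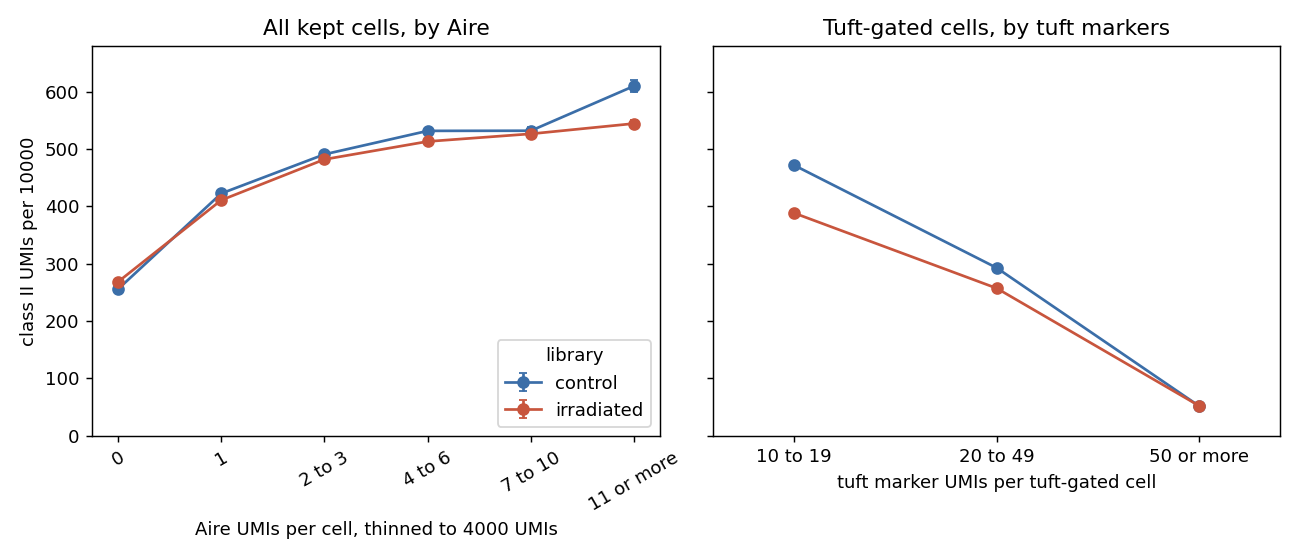
Class II UMIs per 10000 (y axis, with exact Poisson 95% intervals) against Aire UMIs per thinned cell (left) and against tuft marker UMIs per cell in tuft-gated cells (right), for the control (blue) and irradiated (red) library. The left panel, though titled all kept cells, leaves out the cells of the cortical and tuft gates. The level climbs from about 260 to above 540 with Aire, and falls to 51.5 and 52.0 in the tuft-gated cells with most tuft marker UMIs.

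Tuft-gated cells were the only gate in which most cells had few class II transcripts. Against Aire-high cells, 9 of 10 members were more than 2-fold lower in each library, beside 14.1% and 15.2% of tested genes, and H2-DMb1 was lower by less than that. H2-Ob had only 56 UMIs in irradiated tuft-gated cells and reached the minimum there through the Aire-high cells, so 8 of the other 9 members were lower in that library. The median tuft-gated cell held 22.0 and 16.5 class II UMIs per 10000, but the 95th percentile was at 676 and 517. Of control tuft-gated cells, 61.8% (exact Clopper-Pearson 95% interval 54.8 to 68.5) held fewer than 50 per 10000, and 63.4% (56.1 to 70.4) of irradiated ones. In the Aire-high gates, the Aire-intermediate gate, the enterocyte gate and the gate of Ccl21a-high cells with Ccl11, no cell did in either library. For the 286 control Aire-high cells without S100a8 or S100a9, the exact interval allows a share of up to 1.28%. These intervals of shares treat the cells of a pool as independent draws, and do not cover differences between mice.

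The tuft-gated cells also account for most of the cells of either library that held few class II transcripts. Of 180 control cells under 50 per 10000, 128 were tuft-gated, 22 were keratinocyte-gated and 17 met no gate. Of 176 irradiated cells, 118 were tuft-gated, 23 met no gate, 14 were in G2/M and 11 were keratinocyte-gated. The keratinocyte-gated cells were spread from 24.9 at the 5th percentile to 881 at the 95th in the control library and from 33.3 to 757 in the irradiated library. Ccl21a-high cells spread from 115 to 343 and from 143 to 378.

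More tuft marker UMIs went with fewer class II UMIs. Control tuft-gated cells with 10 to 19 UMIs of the 8 tuft markers held 472 class II UMIs per 10000 (38 cells), those with 20 to 49 held 293 (33 cells) and those with 50 or more held 51.5 (50.6 to 52.5, 136 cells). The irradiated cells held 389 (26 cells), 257 (24 cells) and 52.0 (50.9 to 53.1, 136 cells). Aire fell along the same axis, from 5.32 over 3.05 to 0.220 UMIs per 10000 in the control library. In the cells with 50 or more marker UMIs, Cd74 stood at 20.3 and 20.7 and H2-Aa at 9.19 and 9.99. In the control library H2-DMb1 fell least of the 10, from 2.92 to 1.23.

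Cells with more markers also held fewer class II UMIs in the other mimetic gates, though by less. Keratinocyte-gated control cells held 482 with 10 to 19 marker UMIs and 343 with 20 or more, and irradiated ones 469 and 355. Microfold-gated control cells held 483 with 20 to 49 and 398 with 50 or more, and irradiated ones 546 and 401. Enterocyte-gated cells changed little, from 602 to 582 in the control library and from 602 to 584 in the irradiated library. These splits by marker UMIs were chosen after the levels of the gates had been seen.

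The difference in class II level between the libraries was small beside that between gates. The deposited titles reverse each direction in what follows. Over 13 gates with at least 50 cells in each library, 123 pairs of member and gate had at least 100 UMIs in both libraries. None of them was past 0.5 in log2 upwards and 2 were downwards, where 1.67% and 3.3% of 63589 gene and gate pairs were. Both of the 2 pairs were in tuft-gated cells. H2-DMa was 1.05 and 0.668 UMIs per 10000 there, a log2 ratio of -0.65 (-1.03 to -0.28), and H2-Oa was 2.07 and 1.36, a log2 ratio of -0.61 (-0.87 to -0.35).

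**Figure D5:**
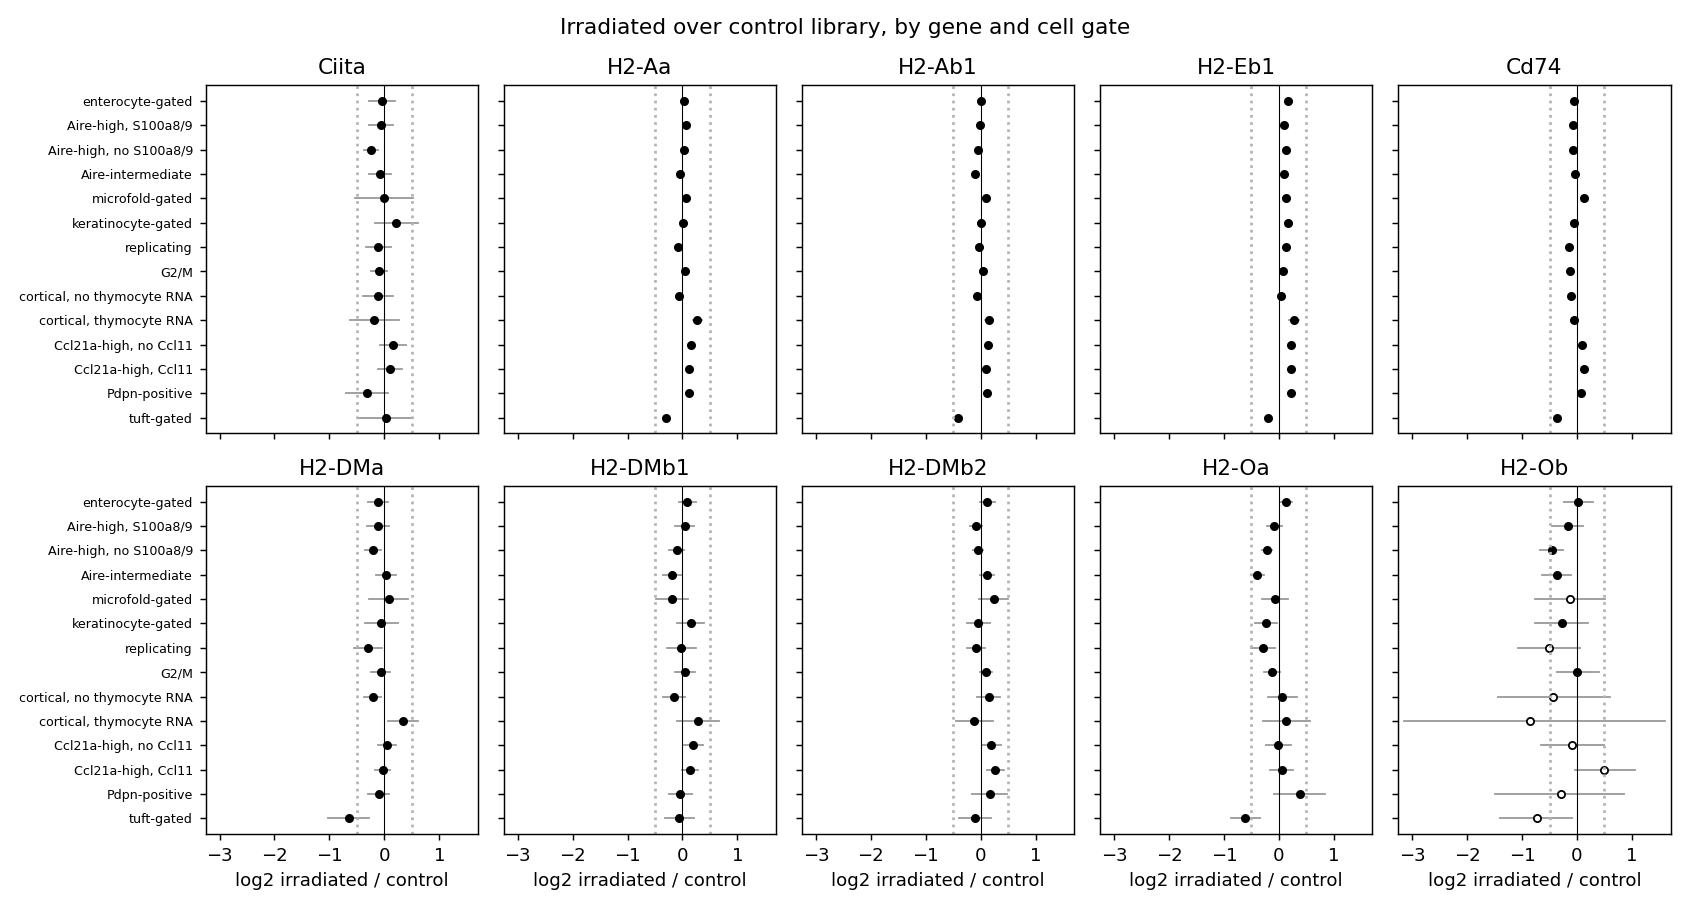
Log2 ratio of the irradiated over the control library (x axis; 0.5 UMIs added) for each class II gene (panels) in 14 cell gates (y axis), with lines that combine the opposite ends of both Poisson 95% intervals. Open circles have under 100 UMIs in a library, and dotted lines mark ratios of 0.5 either way. In the tuft-gated row 9 of 10 genes lie to the left of 0, where the median over all tested genes was 0.03. Titles in the deposit would mirror every panel.

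Over all kept cells the sum had a log2 ratio of -0.01, and in Aire-high cells of -0.02. In Ccl21a-high cells it was 0.13 (0.12 to 0.14), with 0.13 both in those with Ccl11 and in those without. Pdpn-positive cells were at 0.11 and microfold-gated cells at 0.10. Cortical cells without thymocyte RNA and replicating cells were each at -0.07. The ratios of the microfold and cortical gates were larger in the cells near the gate's minimum. Microfold-gated cells were at 0.18 with 20 to 49 marker UMIs and at 0.01 with 50 or more, and cortical cells at -0.16 with 2 to 9 Psmb11 UMIs and at 0.02 with 10 or more. The median over all tested genes was -0.05 over all kept cells, -0.02 in Aire-high cells and 0.08 in Pdpn-positive cells. It was -0.009 in Ccl21a-high, -0.008 in microfold-gated, 0.001 in cortical, -0.003 in replicating and 0.03 in tuft-gated cells.

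Tuft-gated cells had the largest ratio of the sum, at -0.33 (-0.36 to -0.31), and it changed with the split of these cells. By tuft marker UMIs, the ratio was -0.28 in cells with 10 to 19, -0.19 in cells with 20 to 49 and 0.01 (-0.05 to 0.07) in cells with 50 or more. Cells of the last kind were 136 of 207 control and 136 of 186 irradiated tuft-gated cells. With gates drawn on cells thinned to 4000 UMIs the ratio was 0.04.

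H2-Eb1 was the member most often higher in the irradiated library. Its share of the class II sum was higher in the irradiated library in 14 of 14 gates. It stood at 38.5 in control and 44.7 in irradiated Ccl21a-high cells, a log2 ratio of 0.22 (0.20 to 0.24), at 83.0 and 92.9 in enterocyte-gated cells, 0.16, and at 72.4 and 78.7 in Aire-high cells, 0.12. Of 13 gates, its counting range lay above 0 in 11 and below 0 in the tuft gate. Such ranges are narrow for abundant genes: that of Cd74 lay above 0 in 4 gates and below 0 in 9. The share over all genes was not counted. All gates come from the same 2 libraries and are not replicates. Cd74 had the opposite tendency, with a lower share of the sum in 13 of 14 gates and a ratio of -0.08 in Aire-high cells and 0.11 in Ccl21a-high cells. The ratio of H2-Ab1 was -0.03 and 0.11 in the same gates.

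Over all kept cells, H2-Oa and H2-Ob were lower in the irradiated library, with log2 ratios of -0.19 and -0.30, but not in every gate. H2-Oa was 6.24 and 4.76 UMIs per 10000 in Aire-intermediate cells, a log2 ratio of -0.39 (-0.51 to -0.27), and 5.54 and 4.92 in Aire-high cells, -0.17. H2-Ob had a log2 ratio of -0.35 (-0.52 to -0.19) in Aire-high cells. In enterocyte-gated cells H2-Oa was slightly higher, with a ratio of 0.12 (0.01 to 0.24), and H2-Ob was near the control, at 0.02. Ciita had a ratio of -0.24 (-0.37 to -0.11) in Aire-high cells without S100a8 or S100a9, and its counting range held 0 in the other 12 gates. Over all kept cells it was -0.02. Pdpn-positive cells had an H2-Oa ratio of 0.38 with a counting range that held 0 (-0.08 to 0.85).

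Immune cells carry class II in the thymus too, so the RNA of their marker genes was counted in each gate. The whole list of 14 genes of dendritic cells and macrophages held 13.7 and 13.3 UMIs per 10000 in Aire-high cells against 1.91 and 1.37 in Ccl21a-high cells, and up to 16.9 and 17.2 in a single gate, most of it from Irf8, Lyz2 and Fcer1g. The whole list of 7 B cell genes held 0.783 and 1.02 against 0.590 and 0.520, and up to 1.73 and 2.06. A list of 6 B cell genes other than Cd79b held between 0.241 and 1.22 UMIs per 10000 over the control gates and between 0.263 and 0.964 over the irradiated gates. The 11 myeloid genes other than Irf8, Lyz2 and Fcer1g held up to 1.84 and 1.48, the highest in Aire-high cells with S100a8 or S100a9 and in enterocyte-gated cells. Aire-high control cells held 1.18 of these against 0.0556 in Ccl21a-high cells, so this list, like the whole one, moves with the class II sum. A filter left out cells with 2 or more UMIs summed over the shorter B cell and myeloid lists and 12 thymocyte genes. It kept 2273 control and 3681 irradiated cells. In these the sum was still higher in Aire-high than in Ccl21a-high cells, by 1.20 and 1.03 in log2. Irf8, Lyz2, Cd79b and Fcer1g were left out of that filter and of the shorter lists after they were seen to be abundant across the kept cells. Their part in the difference was not tested. Barcodes shared by the libraries were 17 in all and 5 among kept cells.

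Around the members, a list of 28 genes covers the regulators and the endosomal machinery. The factors of the X and Y boxes, Rfx5, Rfxap, Rfxank, Nfya, Nfyb, Nfyc and Creb1, were rare in all gates. None of their 35 tested pairs was past 0.5 between the libraries, where 4.96% of all gene and gate pairs were. At that share few of 35 pairs would be past it. The keratinocyte and microfold gates had no pair with enough UMIs. Rfx5, the DNA-binding part of RFX, stood at 0.360 UMIs per 10000 in control Aire-high and 0.215 in control Ccl21a-high cells. Rfxap, its partner, stood at 0.134 and 0.321. Irf1, an interferon-induced transcription factor that acts on Ciita, was 2.97 and 1.25 in Pdpn-positive cells and 2.56 and 1.55 in cortical cells, log2 ratios of -1.24 and -0.73.

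The proteases that prepare the groove were split between the gates by orders of magnitude. Ctsl, cathepsin L, which cuts Cd74 in the cortex, held 118 and 138 UMIs per 10000 in cortical cells, 24.3 and 30.5 in Ccl21a-high cells and 1.57 and 1.87 in Aire-high cells. Ctss, cathepsin S, which cuts it in most other cells, held 0.144 and 0.150, 0.413 and 0.467, and 2.70 and 2.4 in the same gates. Ctss per Ctsl was 1.72 and 1.28 in Aire-high cells and 0.0171 and 0.0153 in Ccl21a-high cells. Ctsh was highest in microfold-gated cells, at 14.2 and 14.7, and Ifi30, a reductase of endosomes, in Aire-high cells, at 7.15 and 7.60.

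Between the libraries, 9 of 250 tested pairs of these 28 genes were past 0.5 upwards and 13 downwards, against the same 1.67% and 3.3%. Ctsl was higher in irradiated than in control tuft-gated cells, 4.61 against 2.13, and enterocyte-gated cells, 2.66 against 1.31. Ctss was lower in irradiated tuft-gated cells, 0.636 against 0.953, and was also past 0.5 downwards in keratinocyte-gated cells. Ctsl was past 0.5 upwards in Aire-high cells without S100a8 or S100a9 as well. Cst3, an inhibitor of such proteases, was lower in irradiated Aire-intermediate cells, 3.97 against 7.39. H2-Eb2, a class II β gene next to H2-Eb1, was lower in cortical, tuft-gated and replicating cells, with log2 ratios of -0.63, -0.54 and -0.57.

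H2-Eb2 followed Aire more closely than it followed the sum of the members. Over 26 points, the 13 gates in each library, the log2 level of H2-Eb2 had a Pearson correlation of 0.95 with that of Aire and of 0.83 with the class II sum. Gates of a library share its preparation, so these values are a description. The same measure was 0.99 between the sum and H2-Aa, 0.89 for H2-Oa, 0.69 for Ciita, 0.52 for H2-DMb1 and 0.27 for H2-DMa. For the genes that made up most of the sum, the correlation with Aire was 0.76 (Cd74), 0.72 (H2-Aa), 0.62 (H2-Eb1) and 0.47 (H2-Ab1). The Aire-high and Aire-intermediate gates were drawn on Aire itself. Among 12585 genes outside the members, the 10 most like the class II sum were Apobec3 (0.92), Pgrmc1, Cflar, Hspa5, Il15, Foxp4, Lrrk1, Atp2b4, Katnal1 and Ptpn13 (0.88). Those most like Ciita were Prelid2 (0.91), Phgdh, Mras, Mrps7, Wipi1, Icam1, S100a16, Nup54, Tnfrsf10b and Nfkbie (0.86). No gene was on both lists of 10. Lists this short among 12585 genes would seldom share one, so this is no result about Ciita.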

How the data were processed

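RNA of sorted TECs was counted in single droplets for 2 libraries, a control and an irradiated one, with 3 mice pooled in each. The authors trimmed reads with Fastp, aligned them to mm10 and counted UMIs with Cell Ranger, for which the labels give version 5.1. They deposited raw counts of UMIs per gene and barcode, without normalization. Which doublets remained is unknown, since none were called here and only the upper limit of detected genes bears on them.

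Barcodes with more than 2000 and fewer than 7500 detected genes, over genes found in at least 5 barcodes, and under 15% mitochondrial UMIs were kept: 3233 of 4937 control and 5070 of 7167 irradiated barcodes, with 51586327 and 75542631 UMIs. Cells entered the first gate that they met, in the order cortical (2 Psmb11 and 5 Prss16 UMIs), tuft (10), G2/M (20), replicating (10), keratinocyte (10), microfold (20), enterocyte (20), Aire-high, Aire-intermediate, Ccl21a-high and Pdpn (1). The minimums were set from marker UMIs alone. Members and gene lists were chosen with earlier results of these data known. The text names all members, genes of the related list, and the 10 genes most like the sum and Ciita over the gates among genes with at least 500 UMIs.

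Levels are UMIs per 10000 with exact Poisson 95% intervals. Log2 ratios use 0.5 added UMIs, and their ranges take the opposite ends of both intervals. Pairs needed 100 UMIs in each library for ratios between libraries, and 100 UMIs summed over both gates for ratios between gates. Past the fold means 0.5 between libraries and 1 between gates. Thinning to 4000 UMIs left out 5 irradiated cells. The ratio was tested on simulated counts. Alternatives changed the cell filters, gates, denominator, weighting of cells, immune cells and Cd74. Python 3.11.15, numpy 2.4.6, scipy 1.17.1, pandas 2.3.3 and matplotlib 3.10.9 were used. A result on 1 of the related genes is not reported here.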

Additional observations from a re-analysis of the deposited data

Results flagged for a closer look

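The class II sum of tuft-gated cells and that of Ccl21a-high cells differed between the libraries in opposite directions, with log2 ratios of irradiated over control of -0.33 and 0.13. With 1 library per condition this difference was not tested, and the deposited titles reverse both. In tuft-gated cells with 50 or more tuft marker UMIs the ratio was 0.01.

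Barcodes left out of all comparisons for 2000 or fewer detected genes also held class II transcripts. The 1548 control barcodes held 177 class II UMIs per 10000, with a median of 1998.5 UMIs each, and the 1925 irradiated barcodes held 203, with a median of 1791. Kept cells held 354 and 352.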

How the results depend on the processing

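The class II sum was higher in Aire-high than in Ccl21a-high cells, and the members' sum was higher in irradiated Ccl21a-high cells, under each of the 8 alternatives. The log2 difference between Aire-high and Ccl21a-high cells, 1.21 and 1.06 as reported, was 1.19 and 1.04 with under 10% mitochondrial UMIs, 1.27 and 1.07 with gates on thinned cells, 1.19 and 1.04 with doubled marker minimums, 1.23 and 1.07 without mitochondrial and ribosomal UMIs in the denominator, 1.32 and 1.12 with each cell at equal weight, 1.20 and 1.03 without cells with immune UMIs, and 1.07 and 0.94 without Cd74 in the sum.

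The ratio of irradiated to control over all kept cells, -0.0099 in log2, was -0.019 with under 10% mitochondrial UMIs and -0.0057 without mitochondrial and ribosomal UMIs. It turned positive with equal weight (0.053), without cells with immune UMIs (0.035) and without Cd74 (0.023). In Aire-high cells, at -0.022, it was -0.069 with thinned gates, -0.039 with equal weight and 0.026 without Cd74. In Ccl21a-high cells it was 0.16 with equal weight, 0.145 without cells with immune UMIs and 0.152 without Cd74. In tuft-gated cells, at -0.33, it was -0.36 with under 10% mitochondrial UMIs, 0.045 with thinned gates, -0.20 with doubled minimums, -0.48 with equal weight, -0.38 without cells with immune UMIs and -0.31 without Cd74. With the 3 classes of tuft marker UMIs at equal weight it was -0.23. The alternatives for Ccl21a-high and tuft-gated cells were chosen after seeing the data. With equal weight, 4 pairs of member and gate were past 0.5 in place of 2. The cause of these shifts was not tested.

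No paired analysis was possible because each condition has a single library. No library was left out for the same reason. Intervals of levels and ratios cover counting error only, and those of shares of cells cover only the sampling of cells. Differences between mice, between preparations and between conditions cannot be told apart. H2-Ob had 100 UMIs in both libraries in 6 of 13 gates, which limits what can be said of it elsewhere.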
